A study of Homo sapiens with 44 samples.

Results

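Oncostatin M (OSM)-stimulated colon fibroblasts were compared with unstimulated ones across all measured genes, to describe which transcripts OSM raised and which it lowered. The comparison took in the 4 bulk RNA-seq libraries titled OSM and the 4 titled unstimulated, which are 8 of the 44 libraries of the series, and they were chosen by title alone. All of them came from Ccd-18Co, an established fibroblast line of normal colon tissue, used up to passage 20, and no genetic change is named for any group. After attachment, serum was withheld for 72 h, and OSM at 10 ng/ml, or no cytokine, was then given for 24 h. The remaining 36 libraries held 9 other cytokines, 4 libraries each, and contributed to the estimate of spread and to the comparisons with IL-6 and with every other group. Nothing in the labels says that the 4 libraries of a group came from separate cultures or days, so the p-values measure only the spread between these libraries, which may be technical, within 1 line.

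OSM is a cytokine of the IL-6 family that activated myeloid cells and T cells release. It binds the shared receptor chain gp130, encoded by IL6ST, together with OSMR or LIFR, whereupon receptor-bound JAK kinases phosphorylate STAT factors, chiefly STAT3, and MAPK signalling starts alongside. STAT3 switches on SOCS3, whose protein binds gp130 and JAK and shuts the signal down again. Stromal cells of the gut are known for their high OSMR, and OSM is known to act on them in inflamed bowel.

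Depth was similar in both groups. OSM libraries held between 1161973 and 1565446 estimated counts (median 1447109.5) and unstimulated libraries between 1365019 and 1725354 (median 1506719.5). Levels are given as CPM, counts scaled to a common library size with edgeR's TMM factors, and are not divided by transcript length, so they are compared between libraries and not between genes. All 12 fibroblast markers were measured, with a summed level of 38000 to 43420 CPM in OSM libraries and 30220 to 42250 CPM in unstimulated ones. Of 8 epithelial markers 3 (CDH1, KRT20 and CDX2) were at 0 in all 8 libraries, and the list, led by KRT18, summed to 27.3 to 39.6 CPM with OSM and 21.9 to 27.0 CPM without, so the groups did not overlap; the part of this in the results was not tested. Of 6 endothelial markers 5 were at 0, all but TEK, with sums up to 4.26 CPM with OSM and 3.65 CPM without. Of 8 leukocyte markers 4 (CD3E, MS4A1, CD79A and TYROBP) were at 0, and the list, led by CD68, summed to 1.78 to 10.7 CPM with OSM and 0 to 9.30 CPM without. Of 6 glial and neuronal markers 3 (SOX10, S100B and ELAVL4) were at 0, and the sum, mostly of UCHL1, was 110.1 to 159.6 CPM with OSM and 103 to 154 CPM without. The unstimulated libraries were the more scattered ones. On the first principal component, which took 30.2% of the variance, they lay between -10.3 (replicate 1) and 60.7 (replicate 3), and the OSM libraries between -37.9 and -13.6. Unstimulated replicate 1 also had the most genes detected of the 8, 13857. Ribosomal protein genes took 3.08% to 3.91% of counts with OSM and 2.73% to 3.36% without, and the part of this in the results was not tested.

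A total of 9513 genes were tested and 124 were called, 1.3% of those tested. Called means that the adjusted p was under 0.05 and the log2 fold change exceeded 1.5 in either direction. Of the called genes, 51 rose (0.536% of tested genes) and 73 fell (0.767%). Without a threshold on the fold change 377 genes passed (3.96%), of which 135 rose (1.42%) and 242 fell (2.54%). In 119 of the 124 called genes, the 4 OSM libraries lay outside the range of the 4 unstimulated ones, which held for 51 called rises and 68 called falls and for 10.4% of all genes tested. The median log2 fold change of all genes was 0.002. Leaving out unstimulated replicate 1 gave 165 calls (75 up and 90 down), and leaving out unstimulated replicate 3 gave 106. RNA from a mass of cells cannot tell fewer cells of a kind from less RNA per cell, and this holds for each value reported here.

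**Figure D1:**
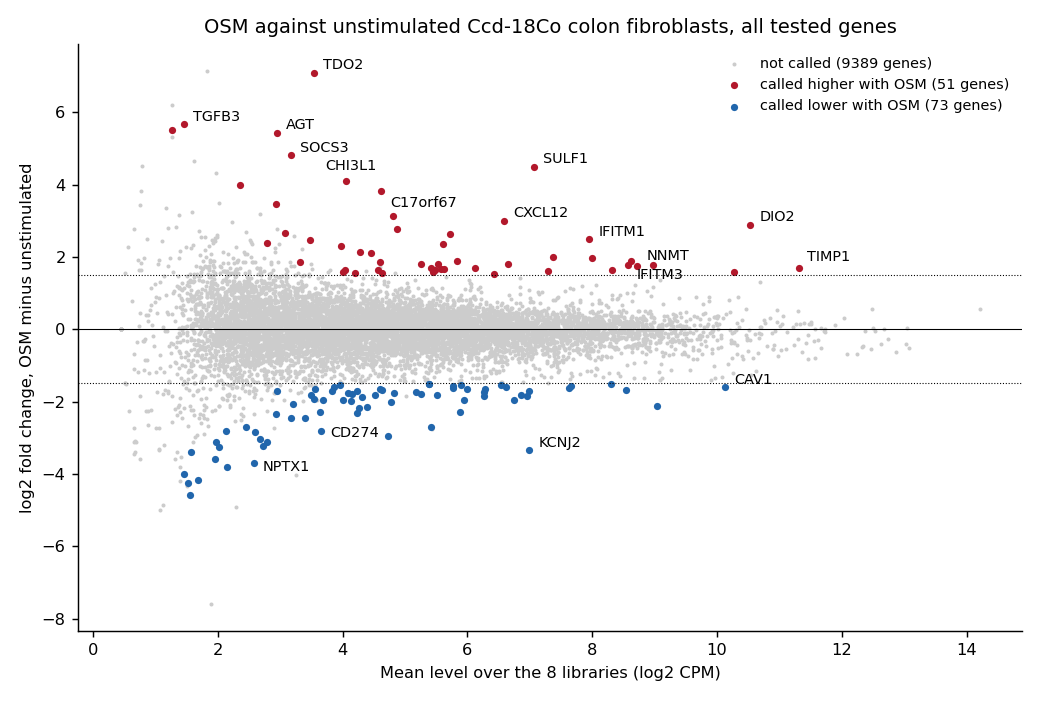
Each point is 1 of the 9513 tested genes, with its mean log2 CPM over the 8 libraries on the x axis and its log2 fold change, OSM minus unstimulated, on the y axis. Dotted lines mark 1.5 in either direction; the 51 called rises (red) reach 7.09 (TDO2) and the 73 called falls (blue) reach -4.58, and the spread of the grey points is wider at the left, where counts are few.

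Genes of the receptor itself were examined first. OSMR was at 45.1, 71.7, 81.4 and 60.2 CPM in the 4 OSM libraries and at 38.7, 38.6, 20.4 and 27.3 CPM in the 4 unstimulated ones. All 4 OSM libraries lay above all 4 unstimulated ones, by a log2 fold change of 1.04 (SE 0.28, adjusted p = 0.021), which passed the test but not the threshold on fold change. IL6ST, by replicate, was at 1393, 1499, 1383 and 958 CPM with OSM and 1019, 803, 554 and 474 CPM without. The common chain gp130 was thus higher on average by a log2 fold change of 0.88 (SE 0.21, adjusted p = 0.00716), although the lowest OSM library lay under the highest unstimulated one. LIFR stood at 6.70, 15.4, 10.7 and 20.6 CPM with OSM and at 26.9, 22.6, 23.2 and 19.1 CPM in its absence. LIFR, the chain that can replace OSMR, did not pass (log2 fold change -0.79, SE 0.55, adjusted p = 0.55). The other 3 members of this list with enough counts were the family cytokines IL6, LIF and IL11, with adjusted p between 0.568 and 0.955; 9 of the 15 listed genes, OSM and IL6R among them, were too low to be tested. Of the 6 tested, 0 were called by edgeR or DESeq2, 2 had an unadjusted p under 0.05, and the median log2 fold change was -0.012.

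Kinases and factors that carry the signal were next. Of the 7 tested JAK and STAT genes 0 were called by edgeR or DESeq2, 0 reached an adjusted p under 0.05 and 3 had an unadjusted p under 0.05. The level of STAT3 was 52.4, 48.6, 61.4 and 27.2 CPM with OSM and 36.7, 21.9, 17.6 and 31.4 CPM without. For STAT3, the main factor of the pathway, the groups overlapped and the test was not passed (log2 fold change 0.81, SE 0.31, adjusted p = 0.157). JAK2 had a log2 fold change of 1.11 (SE 0.46), JAK1 -0.33 (SE 0.19) and STAT2 -0.02 (SE 0.29).

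Among 18 tested feedback inhibitors, SOCS3 was the called member. OSM libraries had 34.7, 29.0, 28.7 and 42.1 CPM of SOCS3, against 0.979, 0, 2.11 and 1.37 CPM in unstimulated libraries. OSM libraries all lay far above the unstimulated range, with a log2 fold change of 4.81 (SE 0.86, adjusted p = 0.00022). For PTPN2, values were 42.6, 42.1, 42.7 and 42.1 CPM with OSM against 16.2, 13.9, 25.3 and 23.2 CPM unstimulated. This phosphatase of JAK and STAT proteins passed the test under the fold threshold (log2 fold change 1.11, SE 0.30, adjusted p = 0.0208), and its groups did not overlap. The other SOCS genes tested, SOCS2, SOCS4, SOCS5 and SOCS6, had log2 fold changes of -0.87, -0.47, -0.25 and 0.15. MAPK phosphatases and Sprouty-family inhibitors lay between -0.88 (DUSP6) and 0.20 (SPRED2), and none passed. PTPN1, PTPN11 and PIAS1 had log2 fold changes of -0.05, -0.16 and 0.11, and PIAS3, at a low level, 1.41 (SE 0.84). Over the list the median was -0.115 and 1 of 18 was called (5.56%).

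**Figure D2:**
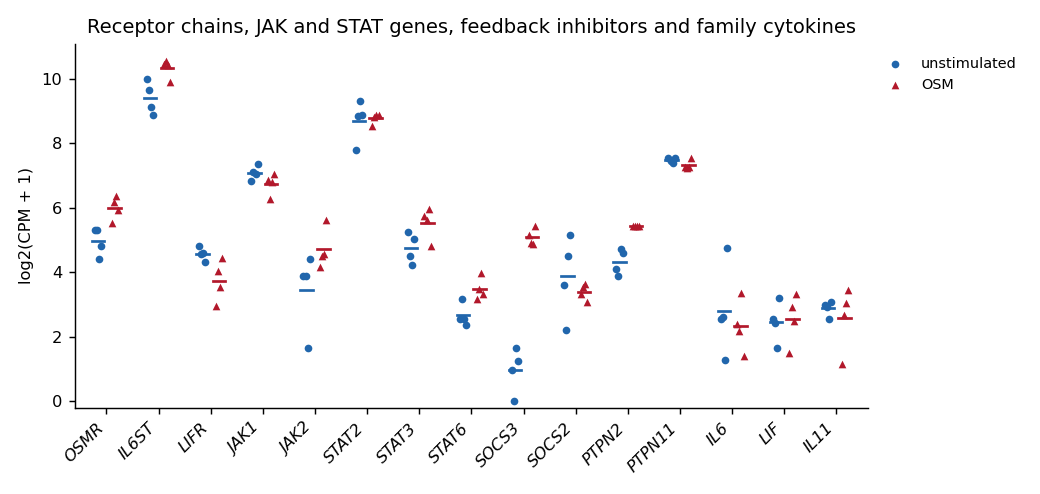
Each point is 1 library, blue circles unstimulated and red triangles OSM, with log2(CPM + 1) on the y axis and the group mean as a bar (n = 4 per group). SOCS3, PTPN2 and OSMR are the genes here whose OSM and unstimulated points do not overlap; the SOCS3 gap is the widest.

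In the list of transcription factors and kinases downstream of gp130, 0 of 22 tested genes were called by edgeR or DESeq2, 9 had an unadjusted p under 0.05, and the median was 0.361. HIF1A and EGR1 passed the adjusted p alone. With OSM, HIF1A reached 1513, 1566, 1535 and 1619 CPM, and without it 685, 899.6, 979 and 986 CPM. This hypoxia-inducible factor rose by 0.81 on the log2 scale (SE 0.17, adjusted p = 0.00147). Unstimulated libraries had 517, 771, 980.1 and 878 CPM of EGR1 and OSM libraries 278, 391, 479 and 463 CPM. The immediate-early gene EGR1 fell (log2 fold change -0.97, SE 0.29, adjusted p = 0.0484). Here and in the lists that follow, members that passed the adjusted p but not the fold threshold are named after their values were seen.

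The largest rise was that of TDO2, which encodes tryptophan 2,3-dioxygenase, an enzyme that opens the ring of tryptophan on the way to kynurenine. TDO2 measured 74.3, 68.8, 96.1 and 66.8 CPM across the OSM libraries and 0.49, 1.46, 0 and 0 CPM across the unstimulated ones. Over the group there were 463 counts with OSM and 3 without, a ratio of 161 with an exact 95% counting interval of 54.7 to 783, and the fitted log2 fold change was 7.09 (SE 1.13, adjusted p = 3.08e-05). Of the other 12 tested genes of tryptophan breakdown and aryl hydrocarbon receptor signalling, WARS1, the tryptophanyl-tRNA synthetase, rose (1.35, SE 0.24, adjusted p = 0.000178) and NQO1, a target of that receptor, fell (-0.78, SE 0.21, adjusted p = 0.0239) on the log2 scale under the fold threshold. CYP1B1, of the same list, did not pass (log2 fold change 1.72, SE 0.54, adjusted p = 0.0589), but each OSM library lay above every unstimulated one. KYNU and KMO, enzymes that act on kynurenine further down, had log2 fold changes of 0.45 (adjusted p = 0.73) and 1.05 (adjusted p = 0.637). The list's median was -0.382, with 1 of 13 called (7.69%).

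TDO2 was the gene that rose most, and the bases before its start in RefSeq are printed here. They lie at chr4:155903446-155903692 of GRCh38.p14 (plus strand), 247 bases up to the next annotated exon base. This RefSeq start lies inside the GENCODE span of TDO2, which begins further upstream, at chr4:155854738. The match to the AP-1 motif TGANTCA is in capitals, 244 to 238 bases before the RefSeq start.
TDO2: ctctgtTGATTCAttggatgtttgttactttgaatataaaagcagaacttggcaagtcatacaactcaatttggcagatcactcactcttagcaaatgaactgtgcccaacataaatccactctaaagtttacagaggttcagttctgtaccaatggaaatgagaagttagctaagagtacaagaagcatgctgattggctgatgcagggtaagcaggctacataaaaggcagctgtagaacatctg
RefSeq start regions were matched by symbol for 43 of the 51 called rises and 52 of the 73 called falls, and the 250 bases before each start were searched on both strands. The STAT motif TTCNNNGAA stood in 4 of the 43 windows of called rises (9.3%), 2 of the 52 of called falls (3.85%), 6.17% of those of all tested genes and 6.78% of all 27305 windows. SOCS3 and CXCL12, whose windows were searched, held no match to these letters. The 6 matches in called genes are shown with 10 bases on either side and the motif in capitals, first the 4 genes that rose and then the 2 that fell.
AGT: tcactaagacTTCCTGGAAgaggtcccag
DIO2: ccatttctgcTTCTTTGAAagaggagaca
IFITM1: aaatacacacTTCTGAGAAactgaaacga
POLR1B: catccgctttTTCGTTGAAgcaacgactt
CD274: ttccgccgatTTCACCGAAggtcaggaaa
NPR3: gaggcttgtcTTCTTGGAAcactgtacac
They lie at chr1:230714274-230714302 (AGT, minus strand), chr14:80211632-80211660 (DIO2, minus strand), chr11:314018-314046 (IFITM1, plus strand), chr2:112542012-112542040 (POLR1B, plus strand), chr9:5450407-5450435 (CD274, plus strand) and chr5:32690811-32690839 (NPR3, plus strand) of GRCh38. The printed stretches of AGT, IFITM1 and POLR1B overlap exons that GENCODE gives the same gene. In IFITM1 and POLR1B the match ends 4 and 6 bases before the start, so the printed stretch runs past it. Their overlap may therefore be with the first exon of that same transcript, and exon overlap of the motif alone was not examined. AP-1 matches stood in 4.65% of windows of called rises (TDO2 and TUBB3), 5.77% of called falls (FGL2, MMP10 and TFPI2) and 3.9% of all tested genes. The C/EBP motif TTGCNNAA stood in 2.33% (CCK), 9.62% (ANXA10, CENPF, EXOC6, FGL2 and RGS4) and 6.1% of windows respectively, the NF-kB consensus in 14%, 9.62% and 11.2%, and the CArG box in 2.33%, 0% and 1.07%. A match describes letters in this window and was not tested as a site.

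Other leading rises were of genes for secreted, surface and signalling proteins. SULF1 was at 729, 592, 612 and 711 CPM in the 4 OSM libraries and at 44.6, 35.7, 11.3 and 23.9 CPM in the 4 unstimulated ones. SULF1 encodes a sulfatase that trims heparan sulfate at the cell surface, and it rose by 4.49 on the log2 scale (SE 0.43, adjusted p = 3.65e-10). CXCL12, by replicate, was at 277, 320.1, 214 and 328 CPM with OSM and 57.8, 31.3, 14.1 and 38.3 CPM without. CXCL12, the ligand of CXCR4 that holds leukocytes in tissue, rose by 2.99 (SE 0.39, adjusted p = 5.89e-07). In both genes every OSM library stood above every unstimulated one. AGT stood at 21.3, 36.2, 36.0 and 30.5 CPM with OSM and at 0.49, 0, 0 and 2.05 CPM in its absence. AGT, the gene of angiotensinogen, the precursor of angiotensin, had a log2 fold change of 5.43 (SE 1.13, adjusted p = 0.00162); it overlaps COG2 on the other strand. In CHI3L1, the OSM libraries held 81.0, 67.6, 61.4 and 54.4 CPM and the unstimulated libraries 6.36, 0, 2.81 and 5.46 CPM. The secreted lectin CHI3L1 rose by 4.09 (SE 0.71, adjusted p = 0.000147) on that scale. The level of GUCY1A1 was 107, 76.5, 96.1 and 66.8 CPM with OSM and 7.34, 8.75, 2.11 and 21.2 CPM without. GUCY1A1, a subunit of the guanylate cyclase that senses nitric oxide, rose by 3.13 (SE 0.64, adjusted p = 0.00124).

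Several leading rises rested on few counts. OSM libraries had 4.87, 4.74, 4.00 and 3.30 CPM of TGFB3, against 0, 0, 0 and 0 CPM in unstimulated libraries. TGFB3, a TGF-beta ligand, was at 0 in all 4 unstimulated libraries and at least 9.04-fold higher with OSM, against a floor of 3 counts over the group (adjusted p = 0.0186); it was not called without unstimulated replicate 2 or 4 (adjusted p up to 0.0565). For APOL1, values were 8.53, 4.15, 1.33 and 0.825 CPM with OSM against 0, 0, 0 and 0 CPM unstimulated. For APOL1, a trypanosome-lytic apolipoprotein, the bound was at least 8.34-fold on the same floor (adjusted p = 0.0401), and the call was lost without OSM replicate 1 or 2 and without any 1 of the unstimulated libraries (adjusted p up to 0.179). With OSM, IL24 reached 18.9, 25.5, 16.7 and 22.3 CPM, and without it 0, 0, 2.81 and 4.78 CPM. IL24, an IL-10 family cytokine, rose by 3.47 on the log2 scale (SE 0.92, adjusted p = 0.0206), and was not called without OSM replicate 2 or unstimulated replicate 1 or 2 (adjusted p up to 0.0798). Unstimulated libraries had 1.96, 0.729, 0 and 0 CPM of TMTC2 and OSM libraries 6.09, 14.8, 15.3 and 16.5 CPM. The glycosyltransferase gene TMTC2 rose by 4.00 (SE 0.96, adjusted p = 0.0074). C17orf67 measured 90.1, 71.7, 94.7 and 94.8 CPM across the OSM libraries and 5.39, 4.37, 12.0 and 2.73 CPM across the unstimulated ones. C17orf67, whose function is not established, rose by 3.83 (SE 0.55, adjusted p = 3.92e-06) and its OSM libraries lay well above the unstimulated ones; it overlaps the tested genes TRIM25 and DGKE, and kallisto's default settings, which the study names, do not use strand.

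**Figure D3:**
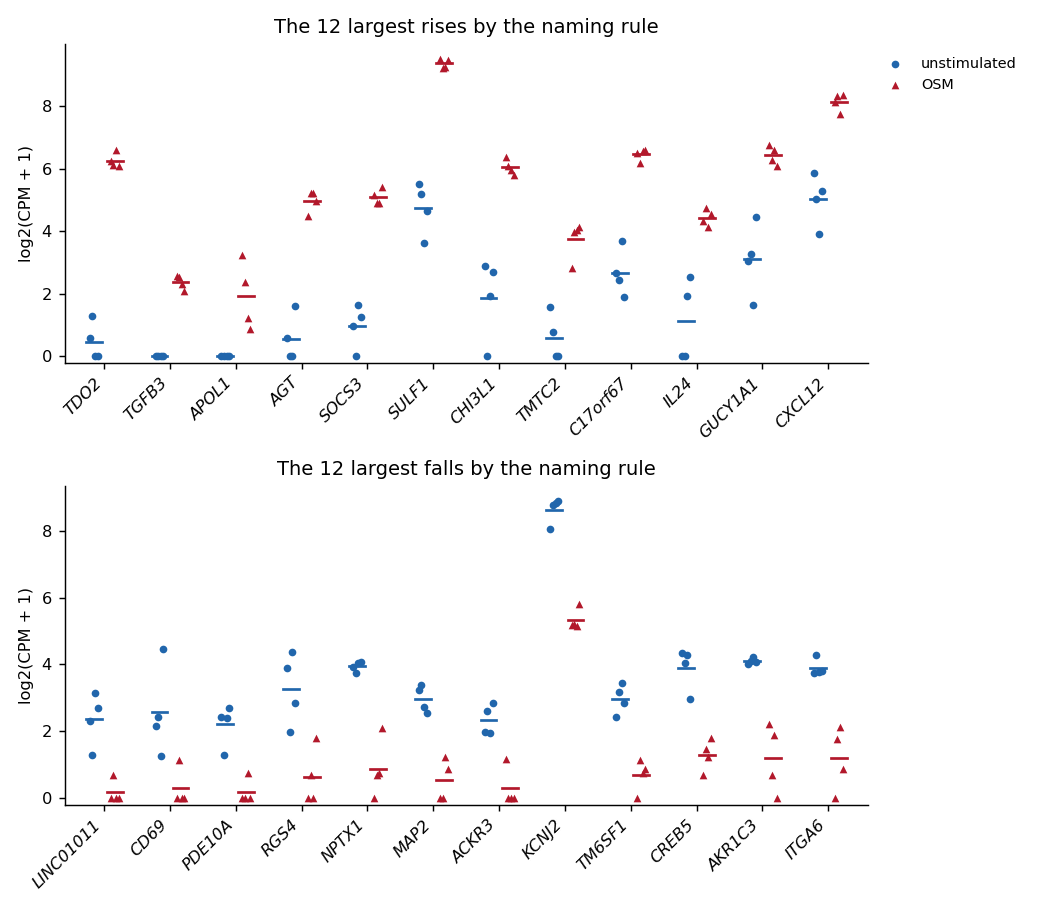
Each point is 1 library, blue circles unstimulated and red triangles OSM, with log2(CPM + 1) on the y axis and the group mean as a bar (n = 4 per group). The upper panel has the 12 largest called rises and the lower panel the 12 largest called falls with groups that do not overlap and a mean log2 CPM of at least 1; most sit near 0 in the lower group, while SULF1, CXCL12 and KCNJ2 are well measured in both.

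Most of the largest falls were of genes with few counts. KCNJ2 was at 35.3, 36.2, 34.7 and 54.4 CPM in the 4 OSM libraries and at 262, 432, 454 and 475 CPM in the 4 unstimulated ones. KCNJ2, which encodes an inward-rectifier potassium channel, was the exception, with a log2 fold change of -3.34 (SE 0.46, adjusted p = 2.25e-06). NPTX1, by replicate, was at 0, 0.593, 0.667 and 3.30 CPM with OSM and 14.2, 12.4, 15.5 and 15.7 CPM without. The neuronal pentraxin gene NPTX1 fell by 3.71 on the log2 scale (SE 0.63, adjusted p = 8.68e-05). CREB5 stood at 0.609, 1.78, 1.33 and 2.47 CPM with OSM and at 19.1, 15.3, 18.3 and 6.83 CPM in its absence. CREB5, a transcription factor that binds cyclic AMP response elements, fell by 3.24 (SE 0.56, adjusted p = 0.000125). In AKR1C3, the OSM libraries held 3.65, 0.593, 2.67 and 0 CPM and the unstimulated libraries 15.2, 16.0, 17.6 and 15.7 CPM. AKR1C3, an aldo-keto reductase of steroid and prostaglandin metabolism, fell by 3.11 (SE 0.73, adjusted p = 0.00653). The level of ITGA6 was 0, 2.37, 3.34 and 0.825 CPM with OSM and 12.2, 18.2, 12.7 and 13.0 CPM without. For ITGA6, an integrin chain that binds laminin, the log2 fold change was -3.02 (SE 0.74, adjusted p = 0.00955), and the call was lost without OSM replicate 1 (adjusted p = 0.0619). OSM libraries had 0, 0.593, 0 and 2.47 CPM of RGS4, against 13.7, 2.92, 19.7 and 6.15 CPM in unstimulated libraries. RGS4, a brake on G-protein signalling, fell by 3.82 (SE 0.86, adjusted p = 0.00397).

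The remaining leading falls had at most 4 counts in all over the 4 OSM libraries. MAP2, the microtubule-associated protein of neurons, had 3 counts with OSM and 45 without, a ratio of 14.4 (exact 95% counting interval 4.62 to 72.4, adjusted p = 0.0176). The scavenging receptor for CXCL12, ACKR3, had 2 counts against 26, a ratio of 12.5 (3.12 to 108, adjusted p = 0.0326). PDE10A, a phosphodiesterase, had 1 count against 25, a ratio of 24.0 (3.92 to 984, adjusted p = 0.0288), and the long non-coding LINC01011, which overlaps NQO2, had 1 against 29, a ratio of 27.8 (4.61 to 1136, adjusted p = 0.00732). For CD69, values were 0, 1.19, 0 and 0 CPM with OSM against 3.43, 4.37, 1.41 and 21.2 CPM unstimulated. Of the 46 unstimulated counts of CD69, an activation marker of lymphocytes, most came from replicate 4; without that library, or without OSM replicate 1, 3 or 4, CD69 was not called (adjusted p up to 0.262). With OSM, TM6SF1 reached 0, 1.19, 0.667 and 0.825 CPM, and without it 4.41, 8.02, 9.85 and 6.15 CPM. The call of TM6SF1, a membrane protein gene, was lost without any 1 of the OSM libraries and without unstimulated replicate 2, 3 or 4 (adjusted p up to 0.163). ACKR3 lost its call without OSM replicate 2, 3 or 4 or unstimulated replicate 2 or 4 (adjusted p up to 0.129), PDE10A without OSM replicate 1, 2 or 4 or unstimulated replicate 3 or 4 (up to 0.117), and MAP2 without OSM replicate 1 or 2 (up to 0.0936).

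Most acute-phase genes could not be tested. Of 22 listed, 18 were too low to be tested. SAA1, HP and CRP were at 0 in all 8 libraries, whereas LBP, the lipopolysaccharide-binding protein, had 9, 13, 9 and 7 counts with OSM and 0, 0, 1 and 0 without, and SERPINA3, a protease inhibitor, had 14, 6, 2 and 6 counts with OSM and 2, 0, 0 and 0 without, neither with a test. CP, also on the list and untested, went the other way, with 2, 2, 1 and 0 counts with OSM and 9, 6, 10 and 5 without. CHI3L1 and NNMT rose among the 4 tested (median 1.98). Unstimulated libraries had 258, 193, 259.6 and 212 CPM of NNMT and OSM libraries 924, 793, 663 and 726 CPM. NNMT, which methylates nicotinamide, rose by 1.75 on the log2 scale (SE 0.17, adjusted p = 6.34e-10), with every OSM library above every unstimulated one. Of 14 complement genes tested 0 were called by edgeR or DESeq2 and 3 had an unadjusted p under 0.05 (median 0.343). The membrane regulator CD46 fell (-0.64, SE 0.16, adjusted p = 0.0105) under the fold threshold.

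Among 18 chemokines tested, CXCL12 was the called member (5.56%) and the list's median was -0.242. CXCL6 measured 261, 383, 346 and 417 CPM across the OSM libraries and 120.5, 105, 165 and 225 CPM across the unstimulated ones. CXCL6, a neutrophil chemokine, rose by 1.19 on the log2 scale (SE 0.26, adjusted p = 0.00223), under the fold threshold, and its groups did not overlap. CXCL8 was at 23.8, 21.3, 26.7 and 28.9 CPM in the 4 OSM libraries and at 23.0, 19.7, 85.1 and 554 CPM in the 4 unstimulated ones. CXCL8 did not pass the test (log2 fold change -2.76, SE 0.85, adjusted p = 0.0549), and unstimulated replicate 4 held most of its counts. CXCL1, by replicate, was at 66.4, 86.6, 101 and 104 CPM with OSM and 44.1, 29.2, 28.1 and 166 CPM without. The same library was the highest of all 8 for CXCL1 (log2 fold change 0.42, adjusted p = 0.662), and also for CXCL2, CXCL3, CXCL5 and IL6, with 25.3, 107, 38.3 and 26.0 CPM. Without that library the log2 fold change was 1.40 for CXCL1 (adjusted p = 0.00949), 1.44 for CXCL6 (adjusted p = 0.000621) and -0.74 for CXCL8 (adjusted p = 0.816). Refits of these 3 genes were added after their values were seen. With any other library left out, CXCL1 did not pass. CXCL8 was called lower without unstimulated replicate 1 (-3.133, adjusted p = 0.0199) or 2 (-3.115, adjusted p = 0.0312), and with no filter on low counts. CCL2 and CCL11, which draw monocytes and eosinophils, had log2 fold changes of 0.24 and 0.19. The IF markers are inflammatory fibroblast genes that the study chose and are no independent evidence of a direction. Of 13 tested, 0 were called by edgeR and 1, CXCL8, was called lower by DESeq2; 4 had an unadjusted p under 0.05 and CXCL6 alone passed the adjusted p (median -0.169). On the log2 scale, COL7A1 had 0.02, FAP 0.09 and PDPN 0.42. The study reports that OSM raised PDPN and THY1 most strongly among these markers' inducers. Both are on this list, and neither passed the adjusted p against unstimulated cells here. The cytokines were not ranked for these genes.

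Matrix proteases and their inhibitors were the list with the most called members, 6 of 26 tested (23.1%), 1 up and 5 down, with a median of 0.09. TIMP1 stood at 5491, 4862, 4467 and 3792 CPM with OSM and at 2061, 1185, 1256 and 1303 CPM in its absence. TIMP1, a broad inhibitor of metalloproteinases, rose by 1.68 on the log2 scale (SE 0.21, adjusted p = 3.33e-07). It was called under every alternative, with log2 fold changes up to 1.90, and its highest unstimulated library was replicate 1. In TIMP3, the OSM libraries held 99.9, 91.3, 60.7 and 47.8 CPM and the unstimulated libraries 436, 271, 122 and 159.8 CPM. TIMP3, the inhibitor that stays bound to matrix, fell (log2 fold change -1.72, SE 0.33, adjusted p = 0.000617), and without unstimulated replicate 1 its change shrank to -1.29 and was not called. The level of ADAMTS5 was 60.9, 69.4, 60.0 and 72.6 CPM with OSM and 167, 205, 270.2 and 297 CPM without. ADAMTS5, an aggrecanase, fell in every OSM library relative to every unstimulated one (log2 fold change -1.84, SE 0.23, adjusted p = 3.4e-07). OSM libraries had 34.7, 20.2, 32.7 and 43.7 CPM of MMP16, against 52.9, 99.9, 198 and 155 CPM in unstimulated libraries. MMP16, a membrane-type metalloproteinase, fell as well (-1.95, SE 0.35, adjusted p = 0.000219). For MMP10, values were 42.6, 46.8, 89.4 and 48.7 CPM with OSM against 131, 94.0, 175 and 259.6 CPM unstimulated. For stromelysin-2, encoded by MMP10, the log2 fold change was -1.54 (SE 0.37, adjusted p = 0.00838), close to the threshold, and the call was lost without OSM replicate 1, 2 or 4, without unstimulated replicate 3 or 4, and with replicate number as a block (adjusted p up to 0.0865). With OSM, MMP12 reached 0, 0, 3.34 and 0 CPM, and without it 5.88, 16.0, 2.81 and 7.51 CPM. MMP12, the macrophage elastase, was low throughout and its groups overlapped (-3.13, SE 0.83, adjusted p = 0.0197); its call was lost without OSM replicate 1, 2 or 4 or unstimulated replicate 2 (adjusted p up to 0.126). Plasminogen activators PLAU (1.14, adjusted p = 0.000392) and PLAT (0.87, adjusted p = 0.0401) rose and their inhibitor SERPINE2 fell (-1.20, adjusted p = 1.02e-06) under the fold threshold, whereas the collagenase MMP1 (-0.20, adjusted p = 0.783) and stromelysin-1, MMP3 (-0.90, adjusted p = 0.112), did not pass.

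Of 18 tested collagens 0 were called by edgeR or DESeq2 and 6 had an unadjusted p under 0.05 (median -0.266); COL4A1, a basement membrane chain, passed the adjusted p alone (-0.75, SE 0.20, adjusted p = 0.0209). Unstimulated libraries had 5404, 13339, 13811 and 10008 CPM of COL1A1 and OSM libraries 7797, 7457, 6257 and 8137 CPM. In COL1A1 the spread between unstimulated libraries exceeded the difference between groups (log2 fold change -0.52, SE 0.36, adjusted p = 0.541). Of 32 elastic fibre, matricellular and crosslinking genes, 2 were called, both down (6.25%, median 0.106). ASPN measured 31.7, 40.3, 18.7 and 19.0 CPM across the OSM libraries and 165, 204, 71.1 and 102 CPM across the unstimulated ones. ASPN encodes asporin, a small proteoglycan that binds collagen, and fell by 2.29 on the log2 scale (SE 0.47, adjusted p = 0.0012). CCN3 was at 4.26, 0.593, 2.67 and 0 CPM in the 4 OSM libraries and at 16.6, 3.64, 9.15 and 28.7 CPM in the 4 unstimulated ones. The matricellular gene CCN3 was called down (-2.85, SE 0.78, adjusted p = 0.0248) with groups that overlapped, and was not called without OSM replicate 2, 3 or 4 or unstimulated replicate 4 (adjusted p up to 0.144). Under the fold threshold, decorin DCN (0.56), fibulin-3 EFEMP1 (1.22), the thrombospondins THBS1 (1.32) and THBS2 (0.86), and tenascin TNC (1.00) rose at adjusted p between 0.00109 and 0.0445. Of 27 contractile genes 0 were called by edgeR or DESeq2, 2 had an unadjusted p under 0.05, and TPM1, a tropomyosin, fell under the threshold (-0.56, SE 0.16, adjusted p = 0.0326); ACTA2 had a log2 fold change of -0.21 (adjusted p = 0.859), and the median was -0.16. Smooth muscle markers summed to 432 to 546 CPM with OSM and 362 to 1125 CPM without.

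**Figure D4:**
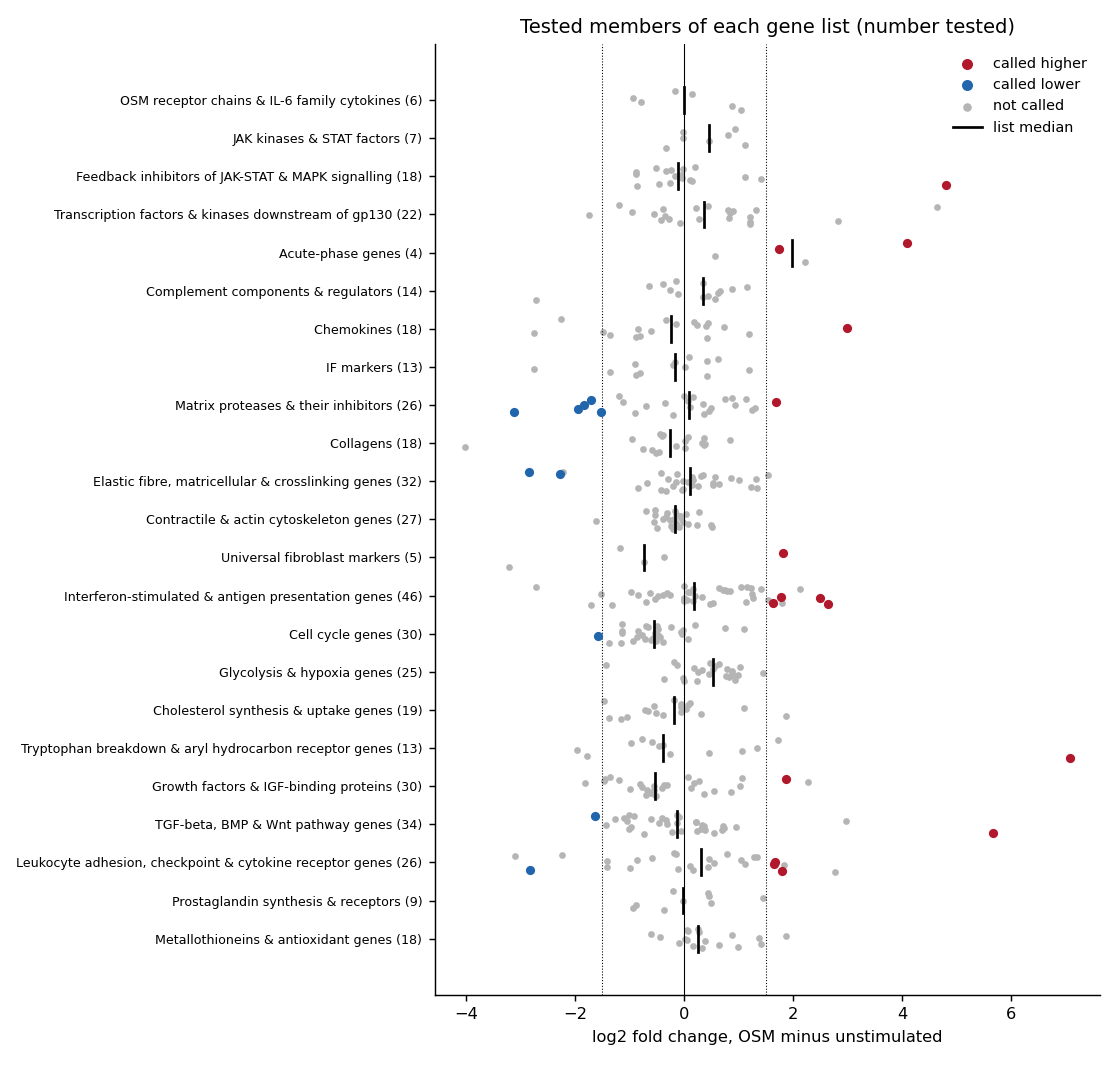
Each point is a tested gene at its log2 fold change, OSM minus unstimulated, on the x axis, in rows by gene list with the number tested in parentheses; red and blue mark called rises and falls, grey the rest, the black bar the list median and the dotted lines 1.5 in either direction. Medians of all but the 4 acute-phase genes lie between -0.741 and 0.533, and the called genes are few and spread over lists.

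Interferon-stimulated and antigen presentation genes held 4 called rises and 0 falls among 46 tested (8.7%, median 0.183). IFITM1, by replicate, was at 699, 615, 575 and 478 CPM with OSM and 80.3, 87.5, 143 and 113 CPM without. IFITM1, a membrane protein that restricts virus entry, rose by 2.49 on the log2 scale (SE 0.28, adjusted p = 1.58e-08). IFITM3 stood at 887, 702, 645 and 594 CPM with OSM and at 257, 211, 185 and 173 CPM in its absence. Its neighbour IFITM3 rose by 1.77 (SE 0.15, adjusted p = 3.8e-11), and IFITM2 passed below the threshold (1.26, adjusted p = 0.000275); these 3 genes are close paralogs, between which reads can be split. In IFI6, the OSM libraries held 112, 133, 117 and 150.1 CPM and the unstimulated libraries 14.7, 22.6, 26.0 and 19.8 CPM. IFI6, an interferon-inducible mitochondrial protein gene, rose by 2.63 (SE 0.60, adjusted p = 0.00431). The level of IFI16 was 545, 571, 635 and 489.8 CPM with OSM and 164, 174, 198 and 189.9 CPM without. IFI16, a sensor of DNA, rose by 1.63 (SE 0.16, adjusted p = 3.65e-10). HLA-B (0.84, adjusted p = 0.00653) and XAF1 (1.24, adjusted p = 0.0161) rose under the threshold. Other members had lower values with OSM that did not pass: IFIT1 (-1.33, adjusted p = 0.115), IFIT2 (-1.71, adjusted p = 0.326) and GBP1 (-0.48, adjusted p = 0.0861), and in IFIT2 and GBP1 every OSM library lay below every unstimulated one. Beside these, the mean IFITM1 level was 592 CPM with OSM, 106 CPM without, 5940 CPM with IFNA and 2508 CPM with IFNG.

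Receptors and adhesion molecules by which fibroblasts meet leukocytes gave 4 calls in 26 tested (15.4%, median 0.301). OSM libraries had 195, 173, 193 and 188 CPM of VCAM1, against 73.0, 59.8, 37.3 and 43.7 CPM in unstimulated libraries. VCAM1, the ligand of integrin VLA-4, rose by 1.80 on the log2 scale (SE 0.29, adjusted p = 2.86e-05). For IL1R1, values were 75.5, 59.9, 87.4 and 117 CPM with OSM against 20.1, 17.5, 35.9 and 34.2 CPM unstimulated. The IL-1 receptor gene IL1R1 rose by 1.66 (SE 0.34, adjusted p = 0.00109). With OSM, IL13RA1 reached 71.9, 67, 111 and 106 CPM, and without it 27.4, 40.8, 27.4 and 15.7 CPM. IL13RA1, a chain of the IL-13 receptor, rose by 1.68 (SE 0.36, adjusted p = 0.00243). The 4 OSM libraries stood above all unstimulated ones in each of these 3 genes; IL13RA1 came under the fold threshold without unstimulated replicate 4 and IL1R1 without OSM replicate 4 (1.49). Unstimulated libraries had 19.1, 29.2, 45.0 and 30.1 CPM of CD274 and OSM libraries 1.83, 3.56, 2.67 and 9.90 CPM. CD274, which encodes the checkpoint ligand PD-L1, fell by 2.82 (SE 0.51, adjusted p = 0.00023), with the highest OSM library under the lowest unstimulated one. IFNGR1 rose (0.78, adjusted p = 0.0254) and TNFRSF11B, the gene of osteoprotegerin, fell (-1.41, adjusted p = 4.44e-08) under the fold threshold.

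Growth factor genes were called in 1 of 30 (3.33%, median -0.529). ANGPTL2 measured 109.6, 91.9, 93.4 and 136 CPM across the OSM libraries and 36.2, 22.6, 27.4 and 30.1 CPM across the unstimulated ones. ANGPTL2, a secreted angiopoietin-like protein, rose by 1.88 on the log2 scale (SE 0.28, adjusted p = 8.94e-06). Below the threshold, IGFBP4 rose (1.02) and ANGPT1 (-1.45), IGFBP3 (-0.77) and PDGFD (-1) fell, at adjusted p between 2.58e-06 and 0.0429. TGF-beta, BMP and Wnt pathway genes were called in 2 of 34 (5.88%, median -0.133), TGFB3 up and SFRP1 down. SFRP1 was at 30.4, 43.3, 48.0 and 24.7 CPM in the 4 OSM libraries and at 128, 127, 56.3 and 148 CPM in the 4 unstimulated ones. SFRP1, a secreted antagonist of Wnt ligands, fell by 1.64 (SE 0.29, adjusted p = 0.000151), and came under the fold threshold without OSM replicate 4 or unstimulated replicate 4 (-1.48 at the smallest). The BMP antagonist GREM1 (0.95) and the TGF-beta target TGFBI (0.56) rose, and the activin antagonist FST (-1.44), the Wnt antagonist DKK1 (-1.10) and the ligand WNT5A (-1.26) fell, at adjusted p between 0.000246 and 0.0296. Among the universal fibroblast markers, CA12 was the called member of 5 tested (20%, median -0.741). CA12, by replicate, was at 74.9, 97.2, 120.1 and 55.2 CPM with OSM and 21.5, 23.3, 17.6 and 36.9 CPM without. CA12, a carbonic anhydrase, rose by 1.81 (SE 0.28, adjusted p = 2.33e-05), and SEMA3C, a semaphorin, fell under the threshold (-1.18, adjusted p = 0.000757).

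Of 30 cell cycle genes tested, 1 was called, down (3.33%), and 5 were down and 0 up at adjusted p under 0.05; the list's median was -0.557, and members such as MCM3 (0.75, adjusted p = 0.407) and MCM2 (1.10, adjusted p = 0.689) had values above 0. CENPF stood at 32.9, 36.8, 28.0 and 25.6 CPM with OSM and at 86.7, 120.3, 81.6 and 83.3 CPM in its absence. CENPF, a kinetochore protein of dividing cells, fell by 1.58 on the log2 scale (SE 0.31, adjusted p = 0.000875), and came under the fold threshold without OSM replicate 4 or unstimulated replicate 2 (-1.43). TOP2A (-1.16), BIRC5 (-1.15), NUSAP1 (-1.14) and RRM2 (-0.85) fell under the threshold at adjusted p between 0.00356 and 0.0288. Of 25 glycolysis and hypoxia genes tested, 0 were called by edgeR or DESeq2, 11 had an unadjusted p under 0.05, and 5 were up and 0 down at adjusted p under 0.05; the list's median was 0.533, and NDRG1 (-1.43, adjusted p = 0.28) and HK1 (-0.01, adjusted p = 1) had values below 0. In LDHA, the OSM libraries held 1098, 1136, 997 and 1183 CPM and the unstimulated libraries 655, 615, 523 and 602 CPM. LDHA, the lactate dehydrogenase chain, rose by 0.88 (SE 0.14, adjusted p = 2.86e-05), and PGK1 (0.99), TPI1 (0.94), GPI (0.93) and GAPDH (0.77), all glycolytic enzymes, rose at adjusted p between 0.00023 and 0.0464. In TPI1, GPI and GAPDH unstimulated replicate 1 lay above OSM replicate 4. Cholesterol synthesis and uptake genes gave 0 calls by edgeR or DESeq2 in 19, with 9 at an unadjusted p under 0.05 (median -0.185), and ACAT2 (-1.17), HMGCS1 (-1.39), MSMO1 (-0.72) and the sterol carrier STARD4 (-1.47) were down at adjusted p between 8.68e-05 and 0.038. Among 18 metallothionein and antioxidant genes, GCLM, a subunit of the enzyme that starts glutathione synthesis, rose under the threshold (0.88, adjusted p = 0.0415) and 0 were called by either tool, with 2 at an unadjusted p under 0.05 (median 0.26). Of 9 prostaglandin genes 0 were called by either tool and 1 had an unadjusted p under 0.05 (median -0.024).

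IL-6 is the other cytokine of the series that signals through gp130, and OSM was compared with it in the same model. The study reports hardly any significant response of these stromal cells to IL-6. Mean SULF1 was 49.9 CPM with IL-6 and 28.9 CPM unstimulated, and mean CXCL12 was 32.5 CPM and 35.4 CPM. IL-6 was not tested against unstimulated cells here, so a difference from IL-6 may restate the difference from unstimulated cells. At the same thresholds 97 genes were called (1.02%), 40 higher and 57 lower with OSM. Among the leading rises, the log2 difference OSM minus IL-6 was 5.42 for TDO2 (adjusted p = 0.000252), 3.73 for SOCS3 (adjusted p = 0.00248), 3.72 for SULF1 (adjusted p = 1.45e-08) and 3.82 for AGT (adjusted p = 0.0202). TGFB3 (1.40, adjusted p = 0.625), TMTC2 (2.37, adjusted p = 0.157) and IFI6 (1.40, adjusted p = 0.226) did not pass against IL-6. Both comparisons share the OSM libraries, so their values are given side by side only.

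Genes particular to OSM were sought by a test of OSM against unstimulated cells and each of the 9 other cytokines at once, taking the largest of the 10 p-values. At the same thresholds 5 genes passed (0.0526%), and 4 of them, SULF1, CXCL12, PLPP3 and C17orf67, were higher with OSM; 9 passed at any fold change (0.0946%). SULF1 was at 661 ± 69.1 CPM (SD, n = 4) with OSM, and its next highest group was IFNA at 130.2 ± 32.7 CPM (SD, n = 4); the log2 difference between these was 2.34 (SE 0.38, adjusted p = 9.237e-06). CXCL12 was at 285 ± 52.2 CPM (SD, n = 4) with OSM against 79.8 ± 11.6 CPM (SD, n = 4) with IL13, the next highest, and 3.30 ± 4.77 CPM (SD, n = 4) with TNF, the lowest; the log2 difference from IL13 was 1.83 (SE 0.37, adjusted p = 0.000756). PLPP3, which encodes a phosphatase of lysophosphatidic acid and related lipids at the cell surface, was at 275 ± 64.2 CPM (SD, n = 4) with OSM, 89.5 ± 15.2 CPM (SD, n = 4) without stimulation and 128 ± 30.6 CPM (SD, n = 4) with IFNA, the next highest (log2 difference 1.10, SE 0.22, adjusted p = 0.000272). C17orf67 was at 87.9 ± 11.0 CPM (SD, n = 4) with OSM and at most 12.5 ± 3.64 CPM (SD, n = 4) on average elsewhere, with IL13. In these 4 genes each OSM library lay above every other library of the series. Without OSM replicate 4, CXCL12 and PLPP3 were not called, and without OSM replicate 2 CXCL12 was not.

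**Figure D5:**
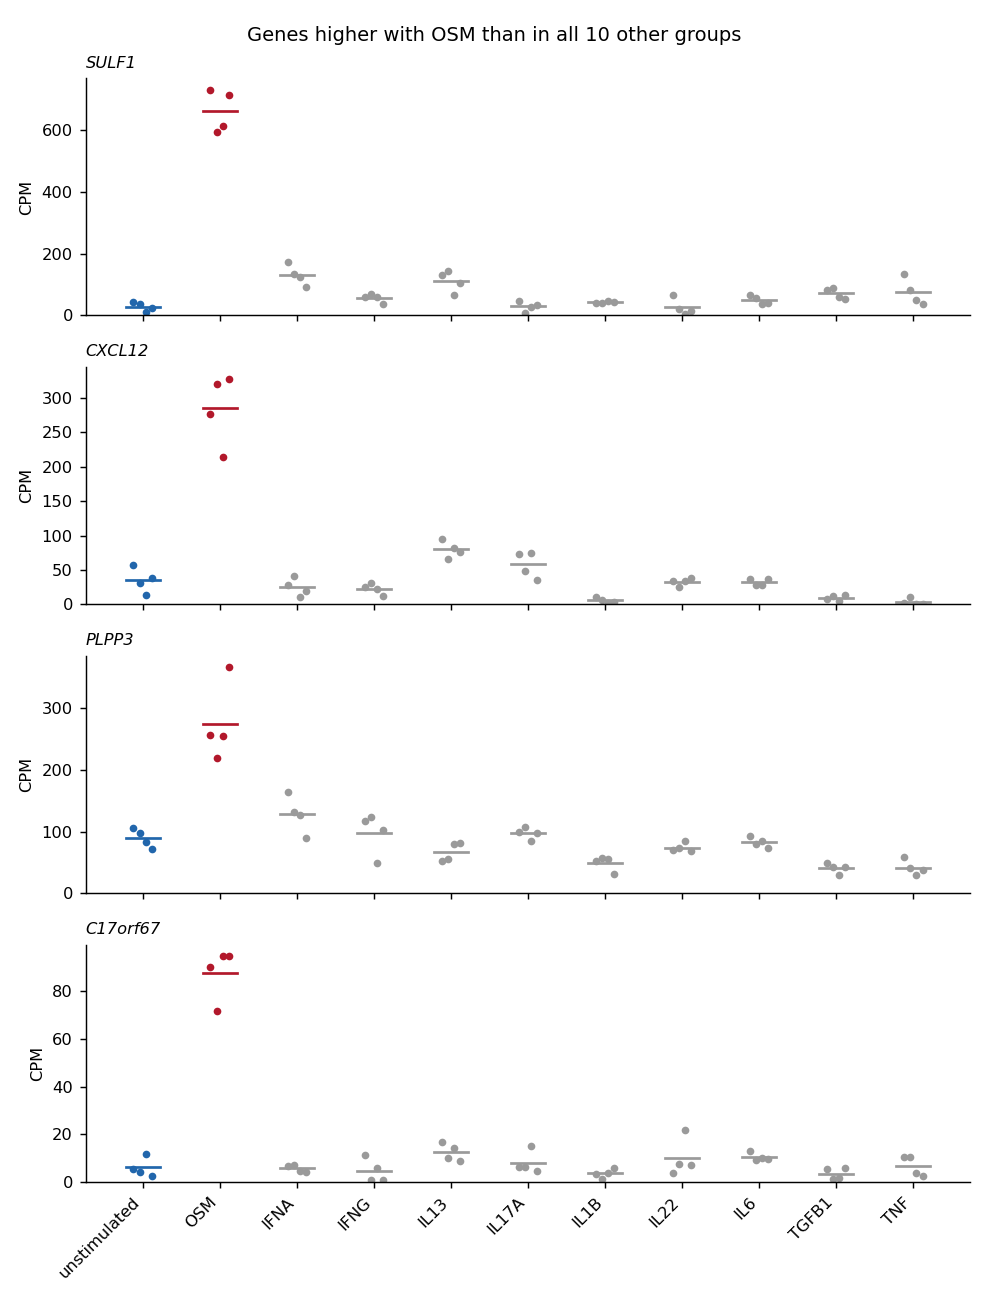
Each point is 1 library at its CPM, in columns by group, with the group mean as a bar (n = 4 per group, 11 groups); red is OSM, blue unstimulated and grey the other cytokines. In SULF1, CXCL12, PLPP3 and C17orf67 the OSM points lie above every other library.

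In GENCODE release 44 (GRCh38), the genes that carry these results lie at chr4:155854738-155920406 (plus strand) for TDO2, chr17:78356778-78360077 (minus strand) for SOCS3, chr10:44370165-44386493 (minus strand) for CXCL12, chrX:47582408-47586789 (plus strand) for TIMP1, chr9:5450503-5470566 (plus strand) for CD274 and chr17:70168673-70180044 (plus strand) for KCNJ2, and values are for the whole gene. All 124 called symbols matched that release, 119 of them protein coding. By whole gene span, introns included, a tested gene on the other strand overlapped 29 of the 124, AGT among them. The counting did not use strand, so reads from any shared exon sequence could not be told apart. Overlap of exons was not examined.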

How the data were processed

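Gene-level estimated counts for 44 bulk RNA-seq libraries (11 groups, 4 libraries each) were deposited by the authors as 1 table of 40663 gene symbols, made with kallisto 0.48.0 against hg38 after FastQC 0.11.9 and MultiQC 1.14, per the submitters' processing notes; 5.77% of the expected counts were not whole and were rounded here. Pseudoalignment shares reads between similar transcripts in an estimated way, and 16928 symbols were at 0 in all libraries. Totals ran from 742173 to 2213424 per library, and the median tested gene had 34 counts in an unstimulated library, so weakly expressed genes were imprecise; counting intervals cover counting error only. The number of columns of other samples left unused was 0. In 12 replicate pairs, chi-square per degree of freedom was at least 3.33 and 0 pairs were identical.

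Groups came from the sample titles. Genes kept by filterByExpr were fitted over all 44 libraries with the quasi-likelihood test of edgeR 4.0.16 (R 4.3.3, TMM scaling, prior count 2) and Benjamini-Hochberg adjustment, two-sided; standard errors are the log2 fold change divided by the root of F. A call needed an adjusted p under 0.05 together with a log2 fold change beyond 1.5 either way. DESeq2 1.42.0, other filters, thresholds and fits, a replicate block and leaving out each library were alternatives. On simulated data with 200 genes changed by 2 on the log2 scale among 8858, the OSM against unstimulated step called 181 of the changed genes and 4 others. The 200 genes were drawn only from those above a minimum expected count, so this share does not cover genes with few counts.

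Named genes were the 12 largest called rises and 12 largest called falls with groups that did not overlap and a mean log2 CPM of at least 1, the called members of the gene lists, all tested receptor, JAK/STAT and feedback genes, and up to 5 genes each way that differed from every other group. Members and lists were chosen with earlier results of these data known. Coordinates were taken from GENCODE 44, start regions from RefSeq on GRCh38.p14. Figures were drawn with matplotlib 3.10.9 in Python 3.11.15. Results of some genes are not reported here.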

Additional observations from a re-analysis of the deposited data

Results flagged for a closer look

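Of 154 groups of 4 libraries examined, in the named genes and the library totals, 16 had a library whose gap to the nearest other exceeded Dixon's 95% critical share of the group's range. For normally distributed values chance gives about 1 in 20. Where all but 1 library are at 0 the share is always 1, so such a group is flagged whatever its level. Among genes with OSM libraries otherwise at 0, single high libraries were OSM replicate 1 for ACKR3 (1.22 CPM), replicate 2 for CD69 (1.19 CPM) and LINC01011 (0.593 CPM), and replicate 3 for MMP12 (3.34 CPM) and PDE10A (0.667 CPM). OSM replicate 4 was high for KCNJ2, at 54.4 CPM with the others between 34.7 and 36.2, and for PTPN11, at 184 CPM with the others between 148 and 154. For MMP10, OSM replicate 3 had 89.4 CPM and the others 42.6 to 48.7. TMTC2 was lowest in OSM replicate 1, at 6.09 CPM with the others between 14.8 and 16.5.

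Unstimulated replicate 4 stood out for CD69, at 21.2 CPM with the others between 1.41 and 4.37, and for IL6, at 26.0 CPM with the others between 1.41 and 5.10. Unstimulated replicate 2 was high for CENPF (120.3 CPM, others 81.6 to 86.7) and ITGA6 (18.2 CPM, others 12.2 to 13.0) and low for SPRY1 (8.02 CPM, others 15.5 to 16.2). DUSP5 reached 6.33 CPM in unstimulated replicate 3, with the others between 1.37 and 2.19. TIMP1 reached 2061 CPM in unstimulated replicate 1, with the others between 1185 and 1303.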

How the results depend on the processing

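Of 47 called named genes, 29 were called under every alternative that gave a value and 18 lost the call under at least 1. A reversal meant a change of sign in a gene called before or after it, and 0 of 77 named genes reversed in this sense. Uncalled named genes did change sign across alternatives, among them IL6 (log2 fold change -1.459 to 0.301) and LIF (-0.151 to 0.497). With an absolute log2 fold change above 1, 249 genes were called against unstimulated cells (88 up and 161 down), 183 against IL-6 and 9 against every other group; with no threshold on fold change the numbers were 377 (135 up and 242 down), 254 and 9. Genes that differed from every other group numbered 8 with the DESeq2 Wald test and 10 with no filter on low counts. Leaving out 1 library at a time gave 95 to 165 calls (43 to 75 up, 52 to 90 down), 72 to 93 against IL-6, and 3 to 6 against every other group, the 3 without OSM replicate 4. DESeq2's Wald test called 126 genes, 106 of them among the 124. No filter on low counts called 157, of which 121 were among the 124. Same-numbered libraries deviated together only for replicate 1 (correlation across genes 0.25; -0.027, 0.001 and 0.052 for the others), so the numbers were not treated as pairs. With the replicate block 125 genes were called (54 up and 71 down), 98 against IL-6 and 6 against every other group, and 1 called named gene, MMP10, was lost. Depth limits the genes with few counts: 3 counts are worth 1.47 to 2.47 CPM in these libraries.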

Other observations

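Further called genes outside the naming rule are described here; they were chosen after their values were seen and grouped by what they are known to do, with no test of any group. Among genes of retinoid metabolism, RDH10, which makes retinal from retinol, rose by 1.77 on the log2 scale (SE 0.32, adjusted p = 0.000265). OSM libraries had 732, 619, 518 and 298 CPM of DHRS3, against 201, 165, 54.9 and 128 CPM in unstimulated libraries. DHRS3, which returns retinal to retinol, rose by 1.98 (SE 0.34, adjusted p = 0.000147), and the retinoid-responsive gene RARRES1 by 2.76 (SE 0.43, adjusted p = 1.86e-05). For ALDH1A1, values were 26.2, 21.9, 19.3 and 34.6 CPM with OSM against 89.6, 178, 55.6 and 39.6 CPM unstimulated. ALDH1A1, which makes retinoic acid, fell by 1.83 (SE 0.43, adjusted p = 0.00637), with unstimulated replicate 2 the highest library. RARRES1 overlaps MFSD1 on the other strand.

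Receptors for sphingosine 1-phosphate, S1PR1 and S1PR3, moved in opposite directions. With OSM, S1PR1 reached 89.5, 96.0, 82.7 and 37.1 CPM, and without it 28.9, 19.7, 21.1 and 24.6 CPM. S1PR1 rose by 1.69 (SE 0.36, adjusted p = 0.00174) on the log2 scale. Unstimulated libraries had 41.1, 51.8, 61.2 and 63.5 CPM of S1PR3 and OSM libraries 24.4, 9.49, 8.67 and 10.7 CPM. S1PR3 fell by 2.01 (SE 0.31, adjusted p = 2.25e-05). Beside SULF1, the related sulfatase SULF2 rose (2.12, SE 0.56, adjusted p = 0.0195), as did HS2ST1, a heparan sulfate sulfotransferase (1.59, SE 0.45, adjusted p = 0.0322), and UST, a sulfotransferase of dermatan and chondroitin sulfate, fell (-1.66, SE 0.46, adjusted p = 0.0274).

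DIO2 measured 3101, 4095, 4368 and 4709 CPM across the OSM libraries and 405, 537, 671 and 594 CPM across the unstimulated ones. DIO2, the deiodinase that activates thyroid hormone, rose by 2.88 (SE 0.27, adjusted p = 3.65e-10) on the log2 scale; its mean was 4544 CPM with IL1B. NAMPT was at 575, 812, 847 and 854 CPM in the 4 OSM libraries and at 125, 192, 211 and 313 CPM in the 4 unstimulated ones. NAMPT, the rate-limiting enzyme of NAD salvage, rose by 1.88 (SE 0.34, adjusted p = 0.000265). CAV1, by replicate, was at 742, 614, 608 and 624 CPM with OSM and 1848, 2517, 1775 and 1724 CPM without. CAV1, the scaffold of caveolae, fell by 1.60 (SE 0.17, adjusted p = 8.2e-09), with all 4 OSM libraries under the unstimulated range. The overlapping neighbours GPRC5B (-1.97, adjusted p = 0.00314) and IQCK (-1.82, adjusted p = 0.00761) both fell, and their reads may not be separable.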
